A study of Homo sapiens with 62 samples.

Results

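Chromosome 19 carries the densest collection of zinc-finger genes in the human genome, and RNA levels of these genes were followed here across 5 human cell lines and their derivatives engineered to lose a chromosome arm. The genes were taken as all protein-coding genes of chromosome 19 whose symbol starts with ZNF or ZFP, whatever their level. That rule found 254 genes, 17.3% of the 1472 protein-coding genes of the chromosome, and 286 protein-coding genes with such a symbol lie on other chromosomes. Of the 254, 85 lie on the short arm (19p) and 169 on the long arm (19q). The transcription factor column of the tables places 243 of them in the C2H2 zinc-finger family and gives no family for 11. ZFP36, one of the members by its symbol, encodes tristetraprolin, an RNA-binding protein that destabilises messenger RNAs and has another type of zinc finger.

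The study made isogenic derivatives that lack chromosome gains found recurrently in cancer, as single-cell-derived clones obtained with a set of techniques that the labels call ReDACT. It holds 62 RNA sequencing libraries in 16 groups. A2058 is a melanoma line whose WT cells carry gains of 1q, 7p and 8q, compared as WT (4 libraries) with 2 clones of 1q-loss, 3 of 7p-loss and 2 of 8q-loss, all made by ReDACT-CO and each in 2 libraries. HCT116 is a colorectal cancer line with a gain of 8q, measured in 2 WT libraries and 2 8q-loss clones made by ReDACT-CO in 2 libraries each. AGS is a gastric cancer line with a gain of 1q, measured in 1 WT library, 2 TK+ integrant clones and 5 1q-loss clones, each in 1 library. Clones 1, 4, 6 and 7 of AGS were made by ReDACT-NS and clone 11 by ReDACT-CO. A2780 is an ovarian cancer line with a gain of 1q, measured in 2 WT libraries, 2 TK+ integrant libraries and 3 1q-loss clones made by ReDACT-NS in 2 libraries each. MCF10A is a non-cancer breast epithelial line, with 2 WT libraries and 4 1q-loss clones in 2 libraries each, of which clones 1 to 3 were made by ReDACT-TR and clone 4 by ReDACT-CO. The same design was repeated in MCF10A expressing hRASV12, an activated form of the RAS oncogene protein, and the labels do not say whether clones with the same number in both sets are the same clone. Only the WT cells of the lines, and the TK+ cells of AGS and A2780, served as controls, so a difference of the loss and a difference of the single clone cannot be told apart where 1 clone shows it.

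Most of these genes encode proteins with a tandem row of C2H2 fingers, each a small zinc-bound fold that contacts a few bases of DNA. In many of them the fingers follow a KRAB domain, which binds TRIM28, and TRIM28 brings the histone methyltransferase SETDB1 and HP1 proteins, so that the bound DNA is packed as repressed chromatin. Many KRAB zinc-finger proteins bind transposable elements. The genes arose by repeated tandem duplication and stand in clusters along the chromosome, and ZNF274, itself a member, is known for binding the last exons of other zinc-finger genes.

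Along the chromosome the 254 genes fell into 16 blocks when members with starts under 1 Mb apart were joined, and 9 blocks held at least 5 members. On 19p the 2 largest blocks ran from ZNF653 to ZNF791 (26 members, 11.5 to 12.6 Mb) and from ZNF101 to ZNF254 (37 members, 19.7 to 24.1 Mb). On 19q the 3 largest ran from ZNF565 to ZNF573 (29 members, 36.2 to 37.8 Mb), from ZNF175 to ZNF331 (40 members, 51.6 to 53.6 Mb) and from ZNF628 to ZNF446 (60 members, 55.5 to 58.5 Mb). Of the 254, 185 (72.8%) overlapped another annotated gene and 135 were on the plus strand. Whether counting used strand is not given in the sources used here, so reads of overlapping genes, such as ZNF569 and ZNF570 or ZNF701 and ZNF808, and of near-identical paralogs may be shared between them.

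Libraries held 15042068 to 30984036 counts over genes, and the members took 0.126% to 0.482% of them. The share was 0.158% to 0.185% in A2058, 0.126% to 0.179% in HCT116, 0.404% to 0.482% in AGS, 0.236% to 0.272% in A2780 and 0.217% to 0.282% in MCF10A. Of marker genes of the labelled origin, 6 of 6 melanocyte genes in A2058 and 5 of 5 basal genes in MCF10A stood at 1 CPM (counts scaled to the library total) or more. So did 5 of 6 gastric genes in AGS, where MUC5AC was below 1 CPM, and 3 of 5 intestinal genes in HCT116, where CDX1 and VIL1 were below. In A2780 only 2 of 5 ovarian markers reached 1 CPM (PAX8, WT1 and EMX2 did not), whereas 4 of 4 fibroblast and 3 of 5 basal genes did. The fibroblast genes there summed to 788 CPM, against 175 for the ovarian list. In HCT116, 4 of 6 gastric genes reached 1 CPM. HCT116 libraries held few genes at very low counts: 175 to 972 genes stood at 1 count, against 1208 to 3301 in the libraries of the other 4 lines, so a 0 in HCT116 may not mean the same as in the other lines.

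The start regions of the members were mostly rich in the dinucleotide CG, the site of DNA methylation. RefSeq (GRCh38.p14) gave a window of 300 bases, 250 before and 50 after the start, for 220 of the 254. Their median was 20 CG, against 14 over all 35116 windows, and 93.6% of them held at least 10 CG, against 56.4% of all. The ETS-type motif CCGGAAG was in 45% of the member windows and in 10.3% of all, and the GC box GGGCGGG in 52.7% and 33.1%, both searched on either strand. The TATA box letters TATAAA stood in 1.8% of the member windows and in 11.5% of all. These matches describe letters and are no evidence of binding. The 11 members that were nearly absent in some clone, by the rule given below, had a median of 20 CG (10 to 34), as the members did. The GC box was in 54.5% of their windows and CCGGAAG in 18.2%. The 5 windows below belong to genes whose RNA was nearly absent in some clones, 3 in A2058 and 2 in MCF10A, and CG dinucleotides are in capitals. ZFP30 (chr19:37656212-37656511, minus strand, 12 CG), ZNF71 (chr19:56595052-56595351, plus strand, 31 CG) and ZNF43 (chr19:21836133-21836432, minus strand, 12 CG) are followed by ZNF569 (chr19:37467395-37467694, minus strand, 17 CG) and ZNF570 (chr19:37467522-37467821, plus strand, 14 CG). The RefSeq start need not be the start of the gene as counted. It lay within 1000 bases of it for 182 of the 220 members, but 36.1 kb inside the counted gene for ZFP30, 15.9 kb for ZNF43 and 1.8 kb for ZNF569. ZNF569 and ZNF570 are read in opposite directions from starts 328 bases apart, so their windows overlap, and 7 pairs of members stood head to head within 1000 bases.
ZFP30: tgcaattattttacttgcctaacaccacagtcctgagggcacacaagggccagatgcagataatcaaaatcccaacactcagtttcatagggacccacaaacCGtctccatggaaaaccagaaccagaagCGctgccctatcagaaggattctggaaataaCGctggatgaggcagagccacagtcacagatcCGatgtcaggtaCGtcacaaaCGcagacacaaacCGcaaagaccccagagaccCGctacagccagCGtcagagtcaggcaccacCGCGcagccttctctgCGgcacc
ZNF71: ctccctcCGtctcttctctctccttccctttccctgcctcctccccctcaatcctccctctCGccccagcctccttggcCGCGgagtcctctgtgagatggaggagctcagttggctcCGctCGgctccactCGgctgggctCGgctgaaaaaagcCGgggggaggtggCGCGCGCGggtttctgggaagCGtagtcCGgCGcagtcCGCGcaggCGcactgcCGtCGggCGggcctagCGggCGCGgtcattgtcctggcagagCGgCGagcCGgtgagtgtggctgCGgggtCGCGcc
ZNF43: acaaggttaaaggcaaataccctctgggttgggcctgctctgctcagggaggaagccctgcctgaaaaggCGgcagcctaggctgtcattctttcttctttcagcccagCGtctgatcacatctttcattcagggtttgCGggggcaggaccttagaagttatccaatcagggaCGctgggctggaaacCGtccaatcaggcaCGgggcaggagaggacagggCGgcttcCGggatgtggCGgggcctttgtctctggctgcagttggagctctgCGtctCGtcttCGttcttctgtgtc
ZNF569: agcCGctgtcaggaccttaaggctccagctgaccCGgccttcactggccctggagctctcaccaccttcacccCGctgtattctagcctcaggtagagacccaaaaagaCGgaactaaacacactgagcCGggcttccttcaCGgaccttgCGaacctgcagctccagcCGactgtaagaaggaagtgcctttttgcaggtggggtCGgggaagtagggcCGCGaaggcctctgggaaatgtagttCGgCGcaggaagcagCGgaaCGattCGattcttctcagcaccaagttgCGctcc
ZNF570: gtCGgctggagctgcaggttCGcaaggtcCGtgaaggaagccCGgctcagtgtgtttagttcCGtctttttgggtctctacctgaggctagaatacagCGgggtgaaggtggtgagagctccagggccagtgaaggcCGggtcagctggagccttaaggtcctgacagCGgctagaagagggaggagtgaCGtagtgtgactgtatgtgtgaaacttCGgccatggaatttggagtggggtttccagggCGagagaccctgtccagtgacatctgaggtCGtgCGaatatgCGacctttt

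In the parental cells, the median level of members on 19q was above that of members on 19p in all 5 lines. Levels are in FPKM, computed from the counts and the gene lengths of the tables. The median member on 19p stood at 0.116 FPKM in A2058, 0 in HCT116, 0.704 in AGS, 0.536 in A2780 and 0.340 in MCF10A. The median on 19q was 0.866 in A2058, 0.052 in HCT116, 2.29 in AGS, 2.06 in A2780 and 1.15 in MCF10A. The arms were not uniform. On 19p the blocks from ZNF653 to ZNF791 and from ZNF101 to ZNF254 were low, with medians of 0.043 and 0.038 FPKM in A2058 and 0.60 and 0.033 in A2780. The block from ZNF557 to ZNF846 (16 members, also on 19p) had medians of 1.11 in A2058, 0.465 in HCT116, 2.81 in AGS, 3.12 in A2780 and 1.22 in MCF10A. Blocks of at least 5 members on 19q had medians of 0.56 to 1.29 in A2058 and 1.07 to 2.73 in A2780. A member was called silent where every WT library held 3 counts or fewer, and 41 members were silent in A2058, 127 in HCT116, 62 in AGS, 38 in A2780 and 52 in MCF10A. That was 16.1%, 50%, 24.4%, 15.1% and 20.5% of the members, against 28.6%, 31%, 35.5%, 31.5% and 30.7% of all protein-coding genes, a larger share of the members in HCT116 and a smaller one in the other 4 lines. Silence took 32.9% of the 19p members and 7.69% of the 19q members in A2058, and 35.3% and 13% in MCF10A. Of all members, 63 had at least 30 counts in every WT library of every line and 16 were silent in all 5. Another 99 had at least 30 counts in every WT library of 1 line and were silent in another, 92 of them silent in HCT116, and 48 remained in a count without HCT116. The ranks of members in different lines were related, with Spearman's rho between 0.581 and 0.795 over 252 members, which share gene length and annotation in every line.

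**Figure D1:**
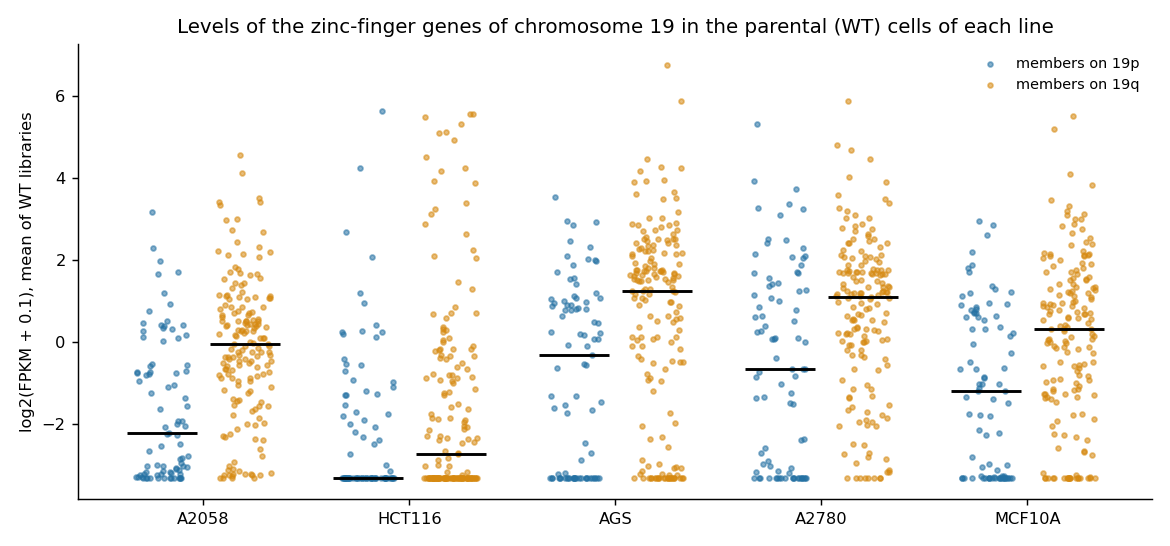
Level of each member in the parental cells, as log2(FPKM + 0.1) of the mean over the WT libraries (vertical axis), by line, with members on 19p in blue and on 19q in orange and black bars at the medians. The 19q median is above the 19p median in each line, and in HCT116 the 19p median lies at 0 FPKM.

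ZNF146, which encodes a protein of zinc fingers with no KRAB domain, had the highest median level over lines. It stood at 23.7 FPKM in A2058, 10.3 in HCT116, 58.9 in AGS, 27.9 in A2780 and 45.7 in MCF10A. ZNF581 (10.6 to 47.1 FPKM) and ZNF787 (17.1 to 59.2 FPKM) followed, both in the last block of 19q, and neither was silent in any line. The widest range over lines belonged to ZNF841, ZNF28 and ZNF614, all in the block from ZNF175 to ZNF331. Each was listed at 0 in HCT116 and highest in AGS, at 12.6, 8.10 and 7.45 FPKM respectively. ZNF536, a zinc-finger gene best known from the nervous system, was found at 0.866 FPKM in A2058 and listed at 0 in the WT libraries of the other 4 lines. ZFP30 was at 0.573 FPKM in A2058, 2.74 in AGS, 5.65 in A2780 and 2.43 in MCF10A, and was listed at 0 in HCT116. ZNF71 was at 0.537 in A2058, 3.17 in A2780 and 2.39 in MCF10A, and was listed at 0 in HCT116 and AGS. ZNF43 was at 0.472 in A2058 and 0.024 in A2780, and was listed at 0 in the other 3 lines.

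In A2058 cells that had lost 8q, a set of zinc-finger genes of chromosome 19 was nearly without reads, while the median member did not move. ZFP30 (ENSG00000120784, chr19:37613749-37692337), a KRAB zinc-finger gene, had 1 and 1 counts in clone 1 and 1 and 3 in clone 2, against 82, 124, 104 and 106 in the WT libraries. ZNF71 (ENSG00000197951, chr19:56595264-56626481) had 1, 1, 2 and 2 counts in the same order, against 80, 86, 71 and 72. ZNF43 (ENSG00000198521, chr19:21804949-21852125) had 1, 3, 4 and 0, against 89, 125, 70 and 100. All 4 libraries of both clones thus lay far under all 4 WT libraries for each of the 3 genes, which sit in 3 different blocks of the chromosome. Their fitted log2 fold changes were -6.01 ± 0.34 (SE) for ZFP30, -5.59 ± 0.33 for ZNF71 and -5.50 ± 0.49 for ZNF43. These 3 genes were selected for this pattern, so the values are a description. In bulk RNA, fewer cells that express a gene and less RNA per cell cannot be told apart.

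Of the 190 members tested in this comparison, 15 were lower and 0 higher at an adjusted p under 0.05 (edgeR's quasi-likelihood test with Benjamini-Hochberg adjustment over all genes). That is 7.89% of the members, and it includes the 3 genes just described. Over all 15141 genes tested, 2.03% were called, with 1.49% lower. Among the zinc-finger genes of other chromosomes 10 of 240 (4.17%) were called, all lower. The 240 include genes of the lost 8q itself, and 227 of them lie outside it. Genes of 8q also count in the shares over all genes. Among other genes of chromosome 19, 1 of 351 on 19p and 0 of 330 on 19q were called (26 of the latter at an unadjusted p under 0.05). The median log2 fold change was -0.01 over the members and 0.01 over all genes. The count of 15 was 8 without WT replicate 2, 25 without clone 2 and 28 with DESeq2.

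Most of the members that fell stood near each other. Of the 15, 9 lay in the block from ZNF175 to ZNF331, which held 29 of the 190 members tested. ZNF28 had 4, 0, 2 and 6 counts against 55 to 115 in WT (log2 fold change -4.77 ± 0.50, adjusted p = 0.0018, edgeR). ZNF468, whose annotation overlaps ZNF28, had 3, 0, 10 and 2 counts against 61 to 72 (-4.06 ± 0.58, adjusted p = 0.0067). ZNF600 had 0 counts in all 4 libraries and 21 to 29 in WT. ZNF701 separated the clones: it had 0 and 0 counts in clone 1 but 9 and 11 in clone 2, against 38 to 68 in WT (-3.39 ± 0.73, adjusted p = 0.047). The call of ZNF701 was lost when any of 7 single libraries was left out, with adjusted p up to 0.16, and with DESeq2 (0.066), a replicate block (0.20) or the libraries of each clone summed (0.11). ZNF808, ZNF528 and ZNF525 had log2 fold changes of -3.28 ± 0.70, -2.94 ± 0.32 and -2.0 ± 0.25 and no overlap with WT. At the small end of the same block, ZNF880 (-0.97 ± 0.21) and ZNF845 (-0.96 ± 0.18) fell by less.

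Of the 6 called members outside that block, 4 formed 2 neighbouring pairs, ZFP30 with ZNF607 and ZNF71 with ZNF470, and ZNF43 and ZNF558 lay in 2 other blocks. ZNF607, next to ZFP30, had 3, 11, 0 and 4 counts against 31 to 45 in WT and fell by 3.05 on the log2 scale. ZNF470, next to ZNF71, had 4, 0, 3 and 2 counts against 16 to 25 (-3.12 ± 0.53, adjusted p = 0.014), and it no longer passed when WT replicate 1 (adjusted p = 0.061) or 2 (0.069) was left out. ZNF558, on 19p, had 4 and 6 counts in clone 1 and 0 and 0 in clone 2, against 27 to 56 (-4.05 ± 0.65, adjusted p = 0.012). Without WT replicate 2 its adjusted p was 0.056. The neighbours of these genes were not all low. In clone 1, the protein-coding gene nearest to ZNF43 that could be compared, ZNF100, stood at 94.7% of its WT level, whereas around ZNF701 both ZNF808 (0%) and ZNF83 (2.98%) were low. Beside ZFP30, ZNF573 stood at 50.8% of WT in clone 1 and 29.4% in clone 2.

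**Figure D2:**
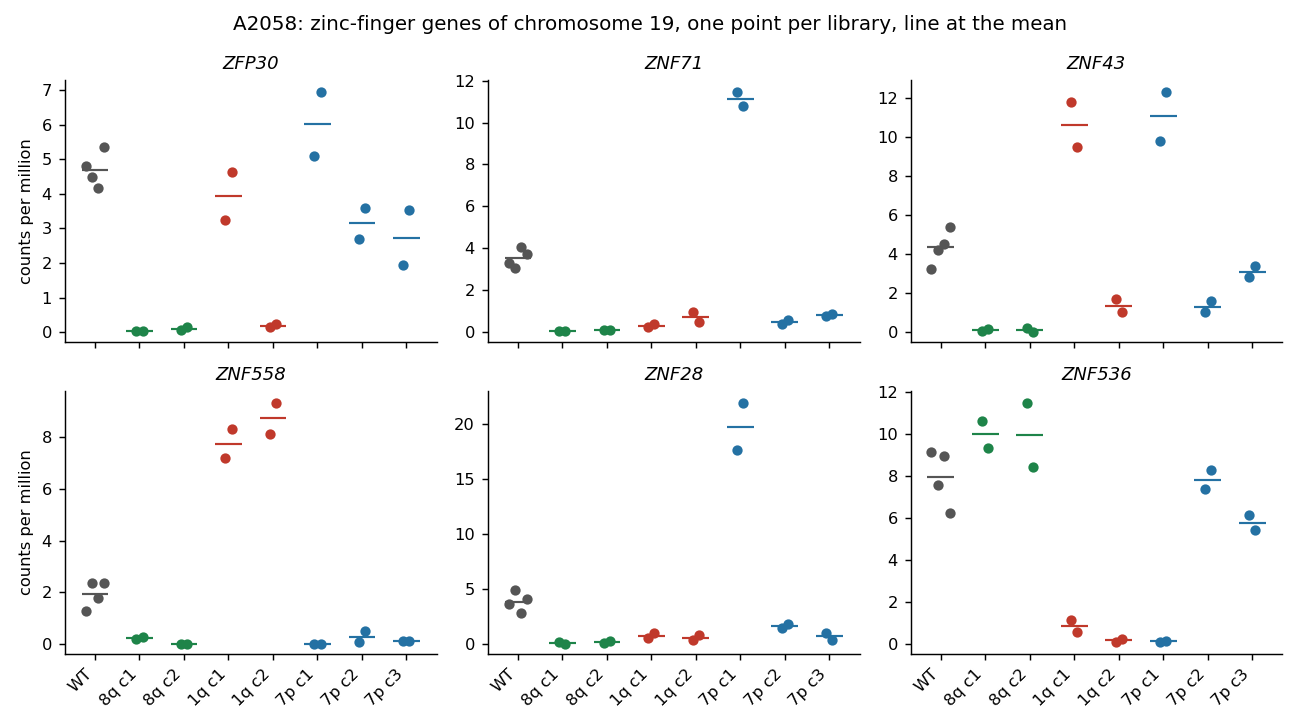
CPM (vertical axis, linear) of ZFP30, ZNF71, ZNF43, ZNF558, ZNF28 and ZNF536 in A2058 by group (horizontal axis), with 1 point per library and a line at the mean of WT or of each clone. ZFP30, ZNF71 and ZNF43 lie near 0 in both 8q-loss clones, ZFP30 also in 1q-loss clone 2, and ZNF536 in the 1q-loss clones and 7p-loss clone 1.

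ZFP30, ZNF71 and ZNF43 also varied between the A2058 clones that lost other arms. The 3 comparisons of A2058 share the same 4 WT libraries, so their values are set side by side only. ZFP30 had 68 and 96 counts in 1q-loss clone 1 but 3 and 6 in clone 2, and 40 to 195 in the 7p-loss clones, within or around the WT range. ZNF71 had 5 and 8 counts in 1q-loss clone 1, 21 and 13 in clone 2, 232 and 302 in 7p-loss clone 1, 9 and 12 in clone 2, and 16 and 19 in clone 3. Only 7p-loss clone 1 exceeded the WT counts of ZNF71, and the other 4 clones lay under them. ZNF43 had 247 and 196 counts in 1q-loss clone 1, 36 and 27 in clone 2, 198 and 345 in 7p-loss clone 1, 23 and 33 in clone 2, and 58 and 76 in clone 3. None of the 3 genes was called after loss of 7p, and ZNF71 alone after loss of 1q. The fitted log2 fold change of ZNF43 after loss of 1q was 0.45 and turned to -1.71 without clone 1. After loss of 7p those of ZNF71 (0.23) and ZNF43 (0.24) turned to -2.43 and -0.98 without clone 1.

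After loss of 1q, 27 of 189 members tested were higher and 22 lower (edgeR, adjusted p under 0.05). That was 25.9% of the members, below the 49.6% of all 15387 genes that were called there (25.3% higher and 24.3% lower). The replicate numbers paired these libraries, and with the number as a block 14 were higher and 16 lower. On 19p 2 were higher and 9 lower of 43, and on 19q 25 were higher and 13 lower of 146, a difference between arms that was not tested. Median log2 fold changes were -0.19 on 19p and 0.11 on 19q, against 0.00 over all genes. Medians also varied within 19p, a difference between blocks that was not tested. In the block from ZNF557 to ZNF846, 10 and 13 of 13 members stood above WT in clones 1 and 2 (medians 0.075 and 0.20), and in that from ZNF101 to ZNF254, 3 and 0 of 14 did (-0.34 and -0.53). The largest fall was that of ZNF536 (24 and 11 counts in clone 1, 2 and 6 in clone 2, against 144 to 198 in WT), at -4.02 ± 0.47 with an adjusted p of 5.4e-05. ZNF71 changed by -2.74 ± 0.34 (adjusted p = 8.4e-05) and ZNF28, with 10, 20, 7 and 20 counts against 55 to 115, by -2.59 ± 0.32 (adjusted p = 7.6e-05).

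Members also rose after loss of 1q. ZNF558 had 151, 172, 175 and 247 counts against 27 to 56 in WT, at 2.08 ± 0.21 (adjusted p = 1.9e-05, edgeR). The neighbouring paralogs ZNF585B (1.70 ± 0.24, adjusted p = 0.00018) and ZNF585A (1.18 ± 0.20, adjusted p = 0.00064) followed. ZNF558 was thus higher after loss of 1q and lower after loss of 7p or 8q. The 6 calls with values given here for loss of 1q were kept when any single clone or library was left out.

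After loss of 7p, ZNF558 was the only called member of 195, against 0.908% of all genes (0.804% lower). It had 0 and 0 counts in clone 1, 1 and 10 in clone 2 and 2 and 2 in clone 3, against 27 to 56 in WT (-4.01 ± 0.72, adjusted p = 0.028, edgeR). Its adjusted p rose to between 0.062 and 0.11 in 8 of the 13 fits with a clone or library left out, 4 of them each without 1 of the WT libraries. Single clones differed more from WT. In clone 1 alone 34 members were higher and 33 lower against WT, where 18.3% of all genes were higher and 19.6% lower. In clone 2, 1 member was higher and 12 lower (1.89% and 3.35% of all genes), and in clone 3, 2 were higher and 20 lower (2.21% and 3.92%). For comparison, 8q-loss clone 1 had 1 higher and 20 lower (2.39% and 3.2%) and clone 2 had 0 higher and 16 lower (0.76% and 1.95%). Without clone 1, the 7p-loss comparison called 9 members, in a fit whose share over all genes is not given here.

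The block from ZNF175 to ZNF331 differed widely between clones. Among its 29 members tested in all 3 A2058 comparisons, 12 were more than 1 above the WT mean (log2 CPM) in 7p-loss clone 1 and 1 was more than 1 below. In 8q-loss clones 1 and 2, 0 were above and 10 and 8 were below by that much. In 7p-loss clones 2 and 3, 0 were above and 3 and 7 below. In 1q-loss clones 1 and 2, 0 and 3 were above and 3 and 4 below. Over all tested genes, 3.80% were that far above WT and 7.97% that far below in 7p-loss clone 1, 2.87% and 1.88% that far below in 8q-loss clones 1 and 2, and 2.75% and 3.56% that far below in 7p-loss clones 2 and 3. In 1q-loss clones 1 and 2, 8.94% and 9.72% of all genes were that far above and 9.06% and 9.62% that far below. Other blocks held such members too. Of the 14 tested from ZNF101 to ZNF254, 6 were that far below in 8q-loss clone 1 (42.9%, against 34.5% of the 29) and 1 in clone 2, and 5 of 17 were in 7p-loss clone 2 (29.4%, against 2.75% of all genes). ZNF28 ranged from 0 counts in an 8q-loss library to 357 and 614 in 7p-loss clone 1, and ZNF468 from 0 to 258 and 396. The median of these 29 was 0.67 above WT in 7p-loss clone 1, and -0.21 and -0.17 in 8q-loss clones 1 and 2. It was -0.15 in 7p-loss clone 3, where it was -0.39 over all 31 members of the block tested after loss of 7p, with 23 of them below WT. In 1q-loss clones 1 and 2 it was 0.025 and 0.12, and in 7p-loss clone 2 it was 0.015.

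**Figure D3:**
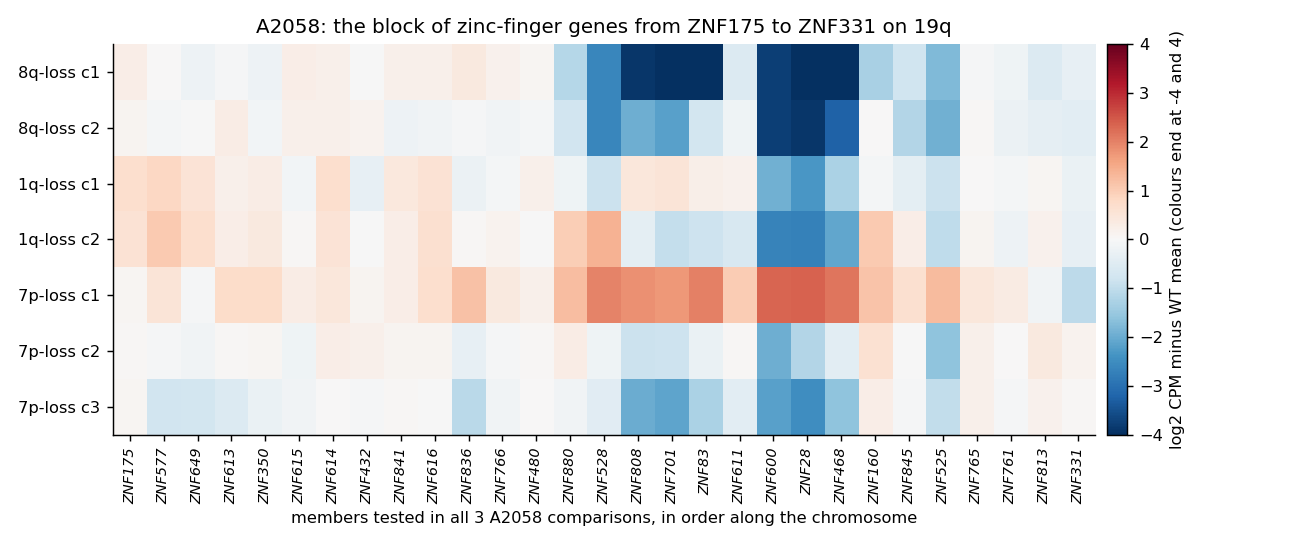
Difference of each A2058 clone from the WT mean (log2 CPM, colour, blue lower and red higher, colours ending at -4 and 4) for the 29 members of the block from ZNF175 to ZNF331 that were tested in all 3 comparisons. Clones are in rows and genes in columns in order along the chromosome. The 8q-loss clones hold 10 and 8 members below -1, and 7p-loss clone 1 holds 12 above 1.

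Over all 25 loss clones, the near loss of a member with at least 30 counts in every control library was rare and unevenly spread. A member was called off in a clone when every library of the clone held 3 counts or fewer and every control library held 30 or more, a rule with no test. This held for 18 of 4011 pairs of an eligible member and a clone (0.449%), against 0.132% of such pairs over all protein-coding genes. ZFP30, ZNF71 and ZNF43 in A2058 8q-loss, which the choice of genes names, account for 5 of the 18, and without them 13 of 4005 pairs (0.325%) were off. Off members had control means of 1.73 to 8.03 CPM. Genes at such levels need a smaller fall to reach 3 counts than highly expressed genes do, and the shares were not matched for level. The 18 pairs held 11 different members and fell in 8 clones. A2058 8q-loss clone 1 had 5, namely ZFP30, ZNF71, ZNF43, ZNF468 and ZNF701, where 0.114% of eligible protein-coding genes were off. Clone 2 had ZFP30 and ZNF71, where 0.0877% were off. 7p-loss clone 1 (0.377%) had ZNF536, with 2 and 3 counts, and ZNF607, with 0 and 0 counts against 31 to 45. The level of ZNF607 there was at least 14-fold lower than in WT, and that of ZNF701 in 8q-loss clone 1 at least 19-fold lower, with 3 counts per library as the floor. With a control minimum of 15 counts, 34 of 4335 pairs were off (0.784%, against 0.238% over all genes). With every clone library under 10% of the control mean, 44 of 4348 were (1.01%, against 0.547%), a smaller contrast with all genes than under the first rule.

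The other 9 pairs were in MCF10A, and they involved 4 genes. ZNF569 and ZNF570, the head-to-head pair shown above, are KRAB zinc-finger genes on 19q. ZNF569 (ENSG00000196437) had 79 and 42 counts in WT, 65 and 112 in 1q-loss clone 1, 0 and 0 in clone 2, 27 and 53 in clone 3, and 1 and 0 in clone 4. ZNF570 (ENSG00000171827) had 68 and 44 in WT, 45 and 82 in clone 1, 0 and 0 in clone 2, 32 and 42 in clone 3, and 0 and 0 in clone 4. Both were thus nearly absent in clones 2 and 4, made by different methods, and present in clones 1 and 3. In the hRASV12-expressing set ZNF569 had 84 and 112 counts in WT, 74 and 65 in clone 1, 4 and 0 in clone 2, 78 and 77 in clone 3, and 0 and 0 in clone 4. ZNF570 had 48 and 46 in hRASV12 WT, 46 and 44 in clone 1, 0 and 0 in clone 2, 30 and 38 in clone 3, and 6 and 1 in clone 4. In both sets the pair was low in clones 2 and 4 and present in clones 1 and 3. As bounds, ZNF569 was at least 17.7-fold lower in clone 2 and at least 36-fold lower in hRASV12 clone 4. ZNF570 was at least 16.6-fold lower in clone 2, at least 14.8-fold lower in clone 4 and at least 18.5-fold lower in hRASV12 clone 2.

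Most genes around this pair were not low in these clones. Of the 5 protein-coding genes within 100 kb of ZNF569 that could be compared, the median stood at 108% of WT in clone 2 and 135% in clone 4. The low end was the partner of the pair itself, and ZNF540 stood at 52.8% and 38.8%. HKR1, another zinc-finger gene of the region, was at 108% and 135%, and ZNF527 at 109% and 149%.

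ZNF93 and ZNF558 went with other clones. ZNF93 (ENSG00000184635), a KRAB zinc-finger protein known for binding LINE-1 elements, had 65 and 47 counts in WT, 14 and 25 in 1q-loss clone 1, 0 and 0 in clone 2, 1 and 0 in clone 3, and 56 and 54 in clone 4. With hRASV12 it had 39 and 16 in WT, 16 and 16 in clone 1, 0 and 0 in clone 2, 0 and 2 in clone 3, and 36 and 38 in clone 4. It was thus low in clones 2 and 3, and at least 16.7-fold lower than WT in clone 2 without hRASV12. The hRASV12 clones did not count as off because one of their WT libraries held 16 counts. ZNF253, the gene beside it, was at 13.7% of WT in clone 2 but 98.3% in clone 3. ZNF558 had 118 and 107 counts in WT and 1 and 1 in clone 3, and 92 and 104 in hRASV12 WT and 6 and 0 in clone 3. All other MCF10A libraries held 74 to 124 counts of ZNF558. MUC16, the only protein-coding gene within 100 kb with at least 1 CPM in WT, had 0 and 0 counts in clone 3 both without and with hRASV12. It had 85 and 5 counts in WT, so its level was uneven there, and it also had 0 and 0 in hRASV12 clone 2, where ZNF558 was not low. The off pairs were 3 of the members in clone 2 (0.114% of all eligible genes), 2 in clone 3 (0.0875%), 2 in clone 4 (0.0613%), 1 in hRASV12 clone 2 (0.276%) and 1 in hRASV12 clone 4 (0.0534%).

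**Figure D4:**
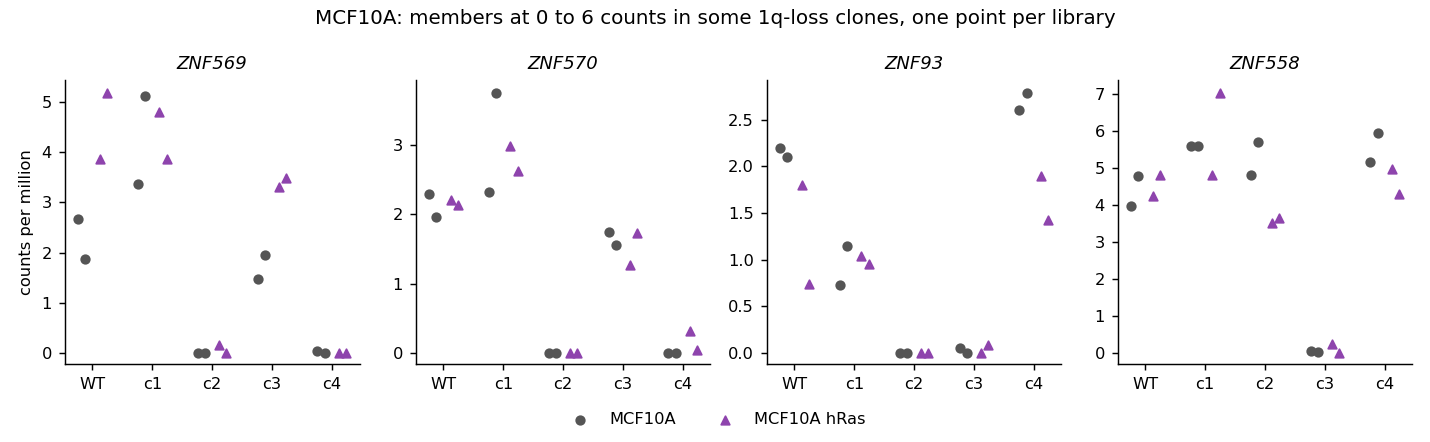
CPM (vertical axis, linear) of ZNF569, ZNF570, ZNF93 and ZNF558 in MCF10A WT and the 4 1q-loss clones, with 1 point per library, circles for cells without hRASV12 and triangles for cells with it. ZNF569 and ZNF570 lie near 0 in clones 2 and 4, ZNF93 in clones 2 and 3, and ZNF558 in clone 3, in both sets.

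In the fits over all clones MCF10A gave no called member. After loss of 1q, 0 of 195 members passed (edgeR), 6 had an unadjusted p under 0.05, and DESeq2 called 1, where 2.04% of all genes were called. With hRASV12, 0 of 201 passed, 15 had an unadjusted p under 0.05, and DESeq2 called 1, where 0.214% of all genes were called. Taken singly against WT, clones 1 to 3 had 1, 2 and 0 members higher and 3, 8 and 9 lower. Their counterparts over all genes were 0.9%, 2.49% and 0.823% higher and 2.66%, 3.29% and 2.2% lower. With hRASV12, clones 1 to 3 had 9, 43 and 7 members higher and 5, 42 and 29 lower, against 9.88%, 24.9% and 8.61% of all genes higher and 8.93%, 26.5% and 7.17% lower.

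Clone 4 of MCF10A had more members higher than lower, most of them on the long arm. It had 29 members higher and 3 lower, where 7.52% and 6.96% of all genes were, and 26 of the 29 were among the 142 tested on 19q. With hRASV12, clone 4 had 88 higher and 12 lower (26.7% and 24.7% of all genes), 77 of the 88 among 145 on 19q. Both clone sets had a raised median for 19q members, by 0.35 without and 0.51 with hRASV12 (log2), and a small one for 19p members, by 0.06 and 0.11. The other protein-coding genes of 19q stood 0.49 and 0.59 higher, and those of 19p 0.07 and 0.08, so on 19q the median shift was no larger for the members than for the other genes of the arm. Of the 142 members of 19q tested in both sets, 24 were called higher in clone 4 in both (16.9%), against 7.08% of all genes and 39.4% of the 363 other protein-coding genes of 19q, so the count shows nothing particular to the members. Ranked by the smaller of their fold changes without and with hRASV12, the first were ZNF575 (1.33 ± 0.38 without and 1.77 ± 0.41 with hRASV12) and ZNF550 (1.06 ± 0.24 and 1.5 ± 0.15). ZNF160 (0.96 ± 0.17 and 1.42 ± 0.13), ZNF329 (0.95 ± 0.27 and 1.04 ± 0.22) and ZNF181 (0.88 ± 0.21 and 0.92 ± 0.18) followed, all with adjusted p of at most 0.032 (edgeR). DNA copy number of 19q was not analysed here, so its part in the shift was not tested.

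In MCF10A clone 3, the median shift of 19q members was -0.14 without and -0.16 with hRASV12, where that of the other genes of 19q was 0.02 and 0.13. Single WT libraries differed from their mean by up to 0.04 and 0.02 for these members. The median of the block from ZNF565 to ZNF573 was at -0.41 and -0.39, with 0 of 26 and 5 of 27 members above WT. MCF10A clones 1 and 2 of both sets lay between 0.00 and 0.05 on 19p and between -0.05 and 0.14 on 19q. Over the A2058 clones the median shift of 19p members lay between -0.21 (7p-loss clone 2) and 0.07 (7p-loss clone 1), and that of 19q members between -0.04 and 0.15. Single WT libraries of A2058 differed from their mean by up to 0.11 on 19p and by up to 0.03 on 19q. In A2780 the shifts lay between -0.04 and 0.04 on 19p and -0.10 and -0.01 on 19q. AGS clones 1 and 4 stood out on 19p, at 0.27 and 0.38, where other genes of 19p moved by -0.01 and -0.06 and single control libraries differed by up to 0.07. Their 19q members moved by 0.09 and 0.16. In HCT116 clone 2, 19p members stood 0.64 above WT and 19q members 0.36, while the other genes of 19p and 19q stood at -0.29 and -0.21. Clone 1 went the other way, with members at -0.11 on 19p (libraries -0.39 and 0.17) and -0.14 on 19q. Its other genes of 19p and 19q stood at 0.13 and 0.12. The 206 ZNF and ZFP genes tested on other chromosomes, without those of 8q, stood at 0.36 in clone 2 too. The value of the 19q members was thus not particular to chromosome 19. The 2 WT libraries of HCT116 themselves lay 0.30 to either side of their mean on 19p, and without WT replicate 1 the value for 19p members was 0.25.

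**Figure D5:**
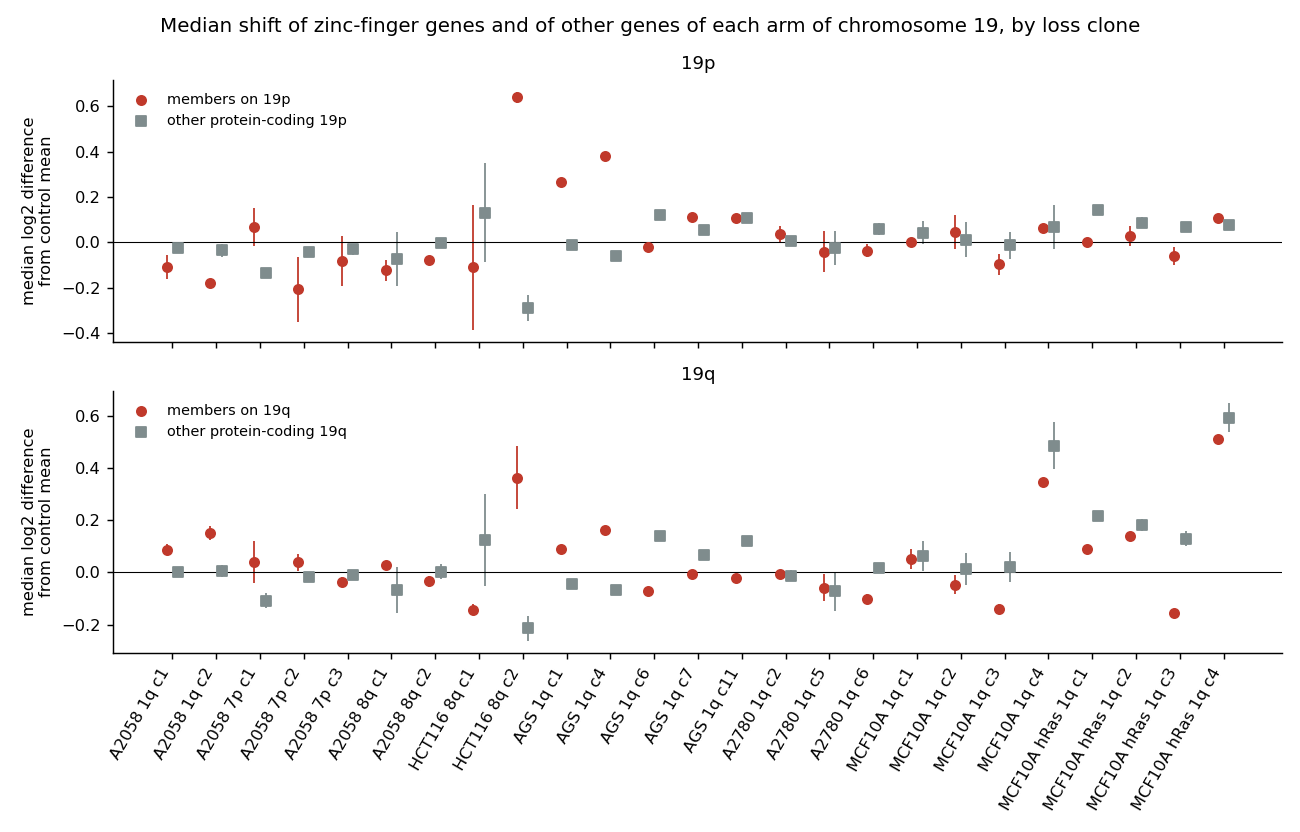
Median log2 difference of each loss clone from the mean of its controls (vertical axis), for the members (red circles) and the other protein-coding genes (grey squares) of 19p (top) and 19q (bottom), with vertical lines over the range of the libraries of a clone. On 19q, MCF10A clone 4 with hRASV12 stands highest for members (0.51), followed by HCT116 clone 2 (0.36) and MCF10A clone 4 without hRASV12 (0.35). For other genes of 19q, MCF10A clone 4 stands highest (0.49 without and 0.59 with hRASV12). On 19p HCT116 clone 2 (0.64) and AGS clones 1 and 4 (0.27 and 0.38) stand highest for members.

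HCT116 gave no calls among the members. Of 123 tested, 0 passed (edgeR), 3 had an unadjusted p under 0.05 and DESeq2 called 0, where 0.14% of all genes were called. ZNF714, a KRAB zinc-finger gene of 19p, had 156 and 269 counts in clone 1 and 361 and 369 in clone 2, against 152 and 186 in WT. ZNF558 had 33 and 95 in clone 1 and 126 and 125 in clone 2, against 42 and 130 in WT, so that the groups overlapped and the WT libraries differed from each other by about as much. ZFP30, ZNF71 and ZNF43 had 0 counts in all 6 libraries.

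Loss of 1q in AGS gave 8 members called higher and 0 called lower of 188 tested (4.26%). Over all genes 7.55% were called, 3.38% higher. ZNF585A lay under all 3 control libraries in all 5 clones (log2 fold change -0.35) but was not called. ZNF850 had 811, 772, 463, 418 and 662 counts in clones 1, 4, 6, 7 and 11, against 374 and 312 in the TK+ clones and 379 in WT (0.89 ± 0.23, adjusted p = 0.047, edgeR). ZNF345 had 107, 126, 109, 100 and 96, against 62, 63 and 61 (0.87 ± 0.17, adjusted p = 0.022). ZNF587B had 324, 376, 383, 383 and 302, against 214, 201 and 226 (0.81 ± 0.14, adjusted p = 0.016). In each case all 5 clones lay above all 3 control libraries, in clones of both methods. The count of 8 depended on single libraries: 0 were called without the WT library or without TK+ clone 2, 1 without TK+ clone 1, 3 without clone 1 or clone 7, 4 without clone 4, and 14 without clone 11.

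In AGS, 3 members hardly present in the controls were found in the 1q-loss clones, at counts that differed widely between clones. ZFP82, a KRAB zinc-finger gene beside the ZNF565 end of its 19q block, had 0, 0 and 2 counts in the controls. It had 124 in clone 1, 259 in clone 4, 8 in clone 6, 23 in clone 7 and 7 in clone 11. ZFP28 had 0 to 2 counts in the controls and 10, 32, 7, 9 and 1 in the clones, and ZNF470 had 0 in all 3 controls and 23, 36, 4, 11 and 3. Clone 4 was highest for all 3 genes, and clone 11 lowest. Under the reverse of the rule for off, ZFP82 was on in clones 1 and 4 and ZFP28 and ZNF470 in clone 4, where 0.337% and 0.322% of eligible protein-coding genes were on. ZNF470 was at least 12-fold higher in clone 4 than in the controls. These were the 4 on pairs among 1356 over all loss clones (0.295%, against 0.195% of all eligible genes). With a minimum of 15 counts there were 9 (0.664%, against 0.426%). With every control library under 10% of the clone mean there were 8 of 1987 (0.403%), which is below the 0.422% of all genes, so members were not on more often than other genes under that rule. Members of the block from ZNF101 to ZNF254 moved with the same clones, with medians of 0.78 and 0.83 above the controls in clones 1 and 4. ZNF431, in that block, had 1385 and 1766 counts in clones 1 and 4, 1163, 1006 and 822 in clones 6, 7 and 11, and 743 to 843 in the controls (0.73 ± 0.19, adjusted p = 0.046).

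In A2780, loss of 1q left small differences. Of 207 members tested, 1 rose and 8 fell (4.35%), where 11.8% of all genes were called (5.95% higher and 5.88% lower). The largest falls were those of a pair of genes in the block from ZNF101 to ZNF254 on 19p. ZNF492 had 106, 93, 101, 119, 100 and 96 counts in clones 2, 5 and 6, against 177 and 138 in WT and 151 and 159 in TK+ (-0.64 ± 0.11, adjusted p = 0.0045, edgeR). ZNF730 had 126 to 168 counts against 192 to 233 (-0.52 ± 0.10, adjusted p = 0.0072). Neither gene overlapped its controls, and both calls were kept in all 13 fits with a clone or library left out. ZNF235 rose by 0.54 ± 0.16 (adjusted p = 0.048), a call lost in 12 of 13 such fits. The count of 9 fell to 2 without WT replicate 1, 3 without TK+ replicate 2 and 5 without TK+ replicate 1 or clone 6 replicate 1, and DESeq2 called 18.

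Larger differences in A2780 lay between the WT libraries and all others. Between TK+ and WT, 10 of 203 members were higher and 4 lower (6.90%, against 11.2% of all genes, 5.16% higher and 6.05% lower). ZNF431 had 24 and 25 counts in WT, 371 and 302 in TK+ and 132 to 414 in the 1q-loss clones (3.70 ± 0.20 for TK+ against WT, adjusted p = 9.6e-08, edgeR). ZNF772 had 38 and 32 in WT, 285 and 263 in TK+ and 107 to 246 in the clones (2.90 ± 0.19, adjusted p = 4.6e-07). ZNF350, a KRAB zinc-finger gene known for a partner role with BRCA1, had 6 and 2 in WT, 70 and 42 in TK+ and 37 to 68 in the clones (3.70 ± 0.52, adjusted p = 0.00042). All 3 were thus low only in the WT libraries, and since the 1q-loss fit pools WT with TK+ as controls these genes were spread within its controls. In the other direction, ZNF430 had 219 and 215 in WT, 119 and 106 in TK+ and 81 to 171 in the clones (-1.02 ± 0.16, adjusted p = 0.0010). ZNF714 had 45 and 50 in WT, 20 and 16 in TK+ and 17 to 43 in the clones (-1.46 ± 0.35, adjusted p = 0.016), which did not pass once WT replicate 2 was left out (adjusted p = 0.14). ZNF566 changed by -0.47 ± 0.13 (adjusted p = 0.035), which did not pass once WT replicate 1 was left out (adjusted p = 0.35). Leaving out a library here leaves 1 in its group, which is assumed to vary like the other group. The count of 14 was 8 without either WT library, 25 without TK+ replicate 1 and 7 with DESeq2. The labels name no clone for the TK+ libraries, so they may come from 1 clone.

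Expression of hRASV12 alone gave 1 call. In MCF10A WT cells with against without it, 1 of 189 was called (ZNF136, higher), where 1.62% of all genes were (0.703% higher). ZNF136 had 86 and 86 counts with hRASV12 and 44 and 34 without (1.40 ± 0.31, adjusted p = 0.041, edgeR), and it did not pass when any of the 4 libraries was left out (adjusted p between 0.099 and 0.34). Those fits hold 1 library in 1 group, which is assumed to vary like the other group, so they say little about the stability of the call.

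Across the 8 comparisons of a loss with its controls, 233 members could be tested in at least 1 and 21 in none of the 10 fits. Of the 233, 71 were called in at least 1 loss comparison and 4 in both directions. The same counts over all genes were not made, so these numbers show nothing particular to the members. ZNF470 and ZNF558 were called in 3 loss comparisons, 7 members in 2 and 62 in 1. All 3 calls of ZNF558 and 2 of those of ZNF470 came from A2058 comparisons, which share the same WT libraries and are not independent. For ZNF470, 2 calls were lower (A2058 1q-loss, -1.83, and 8q-loss) and 1 was higher (AGS). The 4 members called in both directions were ZNF470, ZNF558, ZNF274 and ZNF551.

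ZNF274 (ENSG00000171606, chr19:58183029-58213562), whose product binds other genes of this family, changed little. In A2058 1q-loss it had 520, 516, 474 and 670 counts against 381 to 477 in WT (0.29 ± 0.08, adjusted p = 0.012, edgeR), and no library in CPM overlapped. With the replicate number as a block its adjusted p was 0.063, and without clone 1 it was 0.079. In A2780 1q-loss it had 160 to 237 counts against 194 to 285 in the controls, and the groups overlapped (-0.45 ± 0.12, adjusted p = 0.035, lost in 9 of 13 fits with a clone or library left out). In A2058 8q-loss, where ZFP30, ZNF71 and ZNF43 were nearly absent, it had 623, 469, 428 and 441 counts and was not called (0.15 ± 0.10, adjusted p = 0.60).

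Genes that act with KRAB zinc-finger proteins were followed as a list of 28 tested genes, the TRIM28 pathway together with enzymes of DNA and histone methylation. SETDB1, the methyltransferase that TRIM28 brings, lies on 1q. It was lower after loss of 1q in A2058 (-0.57, adjusted p = 7.3e-05, edgeR), AGS (-0.74, adjusted p = 0.013), A2780 (-0.50, adjusted p = 0.0011) and MCF10A (-0.66, adjusted p = 0.0036). With hRASV12 it was at -0.44 (adjusted p = 0.19) in the 1q-loss clones. TRIM28, itself on 19q, was called only in A2780 1q-loss (-0.24, adjusted p = 0.029) among the 10 comparisons. In A2058 8q-loss 0 of the 28 passed, and 1 had an unadjusted p under 0.05. TRIM28 was at -0.05 and SETDB1 at -0.14 there, neither called. Over the list, 4 genes were higher and 8 lower in A2058 1q-loss, with a median of -0.04 against 0.00 over all genes. That is 42.9% of the list, where 49.6% of all genes were called. In A2780 1q-loss 0 were higher and 14 lower (50%, where 11.8% of all genes were called and 5.88% were lower), with a median of -0.21 against 0.01. AGS, MCF10A, A2058 7p-loss and hRASV12 WT each gave 1 call (SETDB1, SETDB1, CBX3 and MORC2). CBX3, at -0.40 after loss of 7p, lies on the lost arm itself. Whether the levels of these cofactors bear on the members was not tested.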

How the data were processed

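Poly-A RNA of single-cell-derived clones and their parental lines was sequenced. Per the submitters' processing notes, the authors used HISAT2 2.0.5, featureCounts 1.5.0-p3 and hg38. The deposited tables hold the authors' raw counts per gene, and those of A2780 carry positions of GRCh37, so A2780 genes were matched by identifier (252 of 254). Strand and multi-mapping settings are not given in the sources used here. Libraries held 15042068 to 30984036 counts.

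Members and gene lists were chosen with earlier results of these data known. Each comparison was fitted over its own groups with edgeR 4.0.16 (quasi-likelihood test, TMM, at least 10 counts in enough libraries and 15 in all) in R 4.3.3, and p-values were adjusted over all genes tested, with a threshold of 0.05. Clones were averaged as groups and also compared singly. Libraries of 1 clone share their cells' origin, so p-values measure the spread between libraries and clones, and AGS has 1 library per clone. No pair of libraries was a duplicate: chi-square per degree of freedom was at least 3.63 over 31 pairs. Log2 CPM used a prior count of 2, and FPKM used the tables' gene lengths. The tests were checked on simulated data.

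Alternatives were DESeq2 1.42.0, other scalings, other filters, clones summed, a replicate block and each clone or library left out. Replicate numbers paired the libraries by their deviations only in A2058 1q-loss (correlations 0.175 to 0.418 over 3 pairs of units). Genes named were ZFP30, ZNF71, ZNF43 and ZNF274, members off or on in a clone and their neighbours within 100 kb, the 3 largest called increases and decreases per comparison at a mean CPM of at least 1, the 5 most often called, the 3 highest and 3 most variable over lines, and TRIM28 and SETDB1. Also named after seeing values were the other called members of the A2058 8q-loss comparison, ZNF551, ZNF431 in AGS and genes that set the ends of blocks.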

Additional observations from a re-analysis of the deposited data

Results flagged for a closer look

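Among 54 groups of 4 to 8 libraries, 6 held 1 value far from the others. Chance gives about 1 in 20 for independent values, but libraries of 1 clone are not independent and some values rest on few counts. That rate therefore need not hold here. In A2058 8q-loss, the 19p members of clone 1 replicate 1 stood at -0.17 from WT (log2), with -0.08 to -0.07 in the other 3 libraries. ZFP30 in clone 2 replicate 2 stood at 0.139 CPM (3 counts), with 0.0415 to 0.0482 in the others. ZNF558 in A2058 7p-loss clone 2 replicate 2 stood at 0.486 CPM, with 0 to 0.0966 in the others. ZNF585B in A2058 WT replicate 3 stood at 0.554 CPM, with 0.995 to 1.07 in the others. ZNF274 in A2058 1q-loss clone 2 replicate 1 stood at 22.1 CPM, with 24.8 to 25.3 in the others. ZNF345 in AGS clone 4 stood at 7.19 CPM, with 6.39 to 6.59 in the other clones.

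After loss of 1q, 4 members stood on opposite sides of the controls in different lines or states, with no overlap between clone and control libraries in either, but only ZNF470 was called in both. The search covered only named members with a call, and no such count was made over all genes. The differences between lines were not tested. ZNF431 was at -0.31 in A2058, which was not called (adjusted p = 0.052, edgeR), and 0.73 in AGS (log2 fold change). ZNF470 was at -1.83 in A2058 and at 6.96 in AGS, the latter a fitted value against controls at 0 counts that depends on the prior count. ZNF585A was at 1.18 in A2058 and -0.35 in AGS, the latter not called (adjusted p = 0.10). ZNF587B was at 0.81 in AGS and -0.41 in MCF10A with hRASV12, the latter not called (adjusted p = 0.34).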

How the results depend on the processing

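Of 33 calls of single genes named in the text, 19 were kept in every fit with a clone or library left out. Of these, 17 were also kept under every other setting, and the other 16 of the 33 were lost in at least 1. The 17 include ZFP30, ZNF71 and ZNF43 in A2058 8q-loss, which were selected for that pattern, so keeping these calls adds no support. The cause of changes was not tested. Counts of called members moved as follows. DESeq2 gave 3 for A2058 7p-loss, 28 for 8q-loss, 20 for AGS, 18 for A2780 1q-loss, 7 for A2780 TK+, 1 for MCF10A 1q-loss, 1 with hRASV12 and 0 for hRASV12 WT. Without a filter on low counts there were 25 for A2058 8q-loss, 4 for A2780 1q-loss and 4 for hRASV12 WT. A mean CPM of at least 1 gave 0 for A2058 7p-loss. With clones summed there were 0 for A2058 7p-loss and 3 for A2780 1q-loss. The replicate block gave 30 for A2058 1q-loss, where numbers pair the libraries, and, where they share only a number, 0 for A2058 7p-loss, 3 for 8q-loss, 1 for MCF10A 1q-loss and 4 for hRASV12 WT; in AGS no paired analysis was possible because its libraries carry no shared replicate numbers. With a clone or library left out, counts ran from 0 to 9 (A2058 7p-loss), 8 to 25 (8q-loss), 0 to 14 (AGS), 2 to 13 (A2780 1q-loss), 8 to 25 (A2780 TK+), 0 to 1 (MCF10A 1q-loss) and 0 to 1 (hRASV12 WT). Off pairs were 34 and 44, and on pairs 9 and 8, under the other 2 rules. Fold changes that turned ran from -1.71 to 1.29 (ZNF43, A2058 1q-loss), -2.43 to 0.75 (ZNF71, 7p-loss) and -0.98 to 0.69 (ZNF43, 7p-loss).

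Medians depended little on scaling. With RLE size factors the 19q shifts of AGS clones 6, 7 and 11 were -0.060, 0.012 and -0.012, and the WT median was 0.0125 FPKM in HCT116 and 0.847 in MCF10A. At a mean CPM of at least 1 the 19q shifts of AGS clones 4 and 7 were 0.15 and -0.021, and the 19p shift of hRASV12 clone 4 was 0.047. With libraries left out, 19p shifts ran from -0.35 to -0.063 (A2058 7p-loss clone 2), 0.25 to 0.88 (HCT116 clone 2), 0.17 to 0.33, 0.35 to 0.45 and -0.077 to 0.010 (AGS clones 1, 4 and 6), -0.13 to 0.051 (A2780 clone 5), -0.029 to 0.12 and -0.034 to 0.17 (MCF10A clones 2 and 4), -0.078 to 0.11 (hRASV12 WT), and -0.062 to 0.055, -0.035 to 0.072, -0.16 to 0.00039 and 0.046 to 0.15 (hRASV12 clones 1 to 4). The 19q shifts ran from -0.039 to 0.12 (A2058 7p-loss clone 1), -0.37 to -0.12 and 0.25 to 0.48 (HCT116 clones 1 and 2), 0.054 to 0.12, 0.18 to 0.20, -0.082 to -0.070, -0.018 to -0.0070 and -0.016 to 0.0023 (AGS clones 1, 4, 6, 7 and 11), -0.023 to 0.031 and -0.11 to -0.0052 (A2780 clones 2 and 5), 0.012 to 0.097 and -0.19 to -0.10 (MCF10A clones 1 and 3), and 0.062 to 0.098 and 0.098 to 0.14 (hRASV12 clones 1 and 2). Of the 254 members, 21 held too few counts to be tested in any comparison, so no change of theirs was detectable at these depths.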
